A study of Mus musculus with 2 samples.

Results

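The strongest distal regions of open chromatin that recurred in both libraries of haematopoietic stem cells numbered 1449, out of 31532 regions in the series' conservative list. They were chosen by measured values, so their signal is a description and supports nothing. Overlapping peaks of the conservative list were merged, and each region took the signal and the summit of its highest peak, the signal being the authors' value for a peak. Kept were autosomal regions with a signal of at least 12 and a summit more than 1 kb from every protein-coding transcription start site (TSS), which also overlapped a region in each replicate's own list. Of 30860 autosomal regions 19991 were distal in this sense, 1515 of these reached the signal, and 66 of those were missing from a replicate's list. The 5 regions just inside the threshold had signals from 12 to 12.003, and the 5 just outside from 11.993 to 11.996. The comparison set was the 8594 autosomal distal regions in both replicates' lists with a lower signal, called the weaker distal regions below.

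The cells were primary hematopoietic stem cells from C57BL/6J mice, adults of 5 to 6 weeks. Their open chromatin was mapped by ATAC-seq, whose transposase cuts accessible DNA and adds sequencing adapters to it. There was 1 group of 2 libraries, replicates 1 and 2, with no mutant allele or treatment in the labels. Both are labelled biological replicates but carry the same donor identifier, so the spread between them may be technical. The labels name no sorting markers and give sex as not collected, and they give 50000 starting cells and a size range of 125 to 278, with no unit, for replicate 2 and neither for replicate 1. Each replicate's own list held 34588 regions for replicate 1 and 22434 for replicate 2, and read depth is unknown because the files list peaks. As a check of the labelled cell type, the stem cell marker genes Kit, the stem cell factor receptor, and Hlf, a transcription factor, had a promoter peak in the conservative list, at signals of 8.39 and 6.53, while Ly6a, Slamf1, Procr, Mecom and Fgd5 had none. Of 13 markers of mature lineages 3 had one (Pf4, Itga2b and Itgam).

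Open distal regions include enhancers, which bind transcription factors and act on promoters from afar, and insulator sites bound by CTCF, the zinc finger protein that halts cohesin and so anchors chromatin loops. In blood stem cells RUNX1, ETS family proteins such as ERG and FLI1, and GATA2 are known to bind enhancers together. NF-Y is a widely expressed factor that binds the CCAAT box, found at many promoters and also elsewhere. Nuclear genomes also carry inserted fragments of mitochondrial DNA and duplicated segments, and a short read from one copy can be placed at another.

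The 8 sequences here show what the results below turn on, all read 5′ to 3′ from GRCm38.p6, the mm10 sequence. The region of highest signal is shown whole, on the forward strand. Of its 257 bases 129, in capitals, aligned at 100% identity to bases 11514 to 11642 of mitochondrial DNA. Both strands of mitochondrial DNA were searched, and the strand of the match was not recorded.
region upstream of Abcb11, chr2:69355473-69355729: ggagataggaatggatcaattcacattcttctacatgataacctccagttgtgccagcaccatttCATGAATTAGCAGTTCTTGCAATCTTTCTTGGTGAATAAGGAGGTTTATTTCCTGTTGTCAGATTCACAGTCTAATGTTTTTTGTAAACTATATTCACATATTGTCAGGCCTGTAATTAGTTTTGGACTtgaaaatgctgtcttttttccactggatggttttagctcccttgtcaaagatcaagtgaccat
The next pair comes from the largest family of regions that matched one another, on chromosome 8. Each window is read in the direction of its CTCF match, in capitals, and the first is the reverse strand. The windows differed at 3 of 112 positions.
region nearest Gm15319, chr8:20424820-20424931: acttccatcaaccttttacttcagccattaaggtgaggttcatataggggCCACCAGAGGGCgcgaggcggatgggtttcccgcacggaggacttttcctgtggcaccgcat
region nearest Gm31371, chr8:20122149-20122260: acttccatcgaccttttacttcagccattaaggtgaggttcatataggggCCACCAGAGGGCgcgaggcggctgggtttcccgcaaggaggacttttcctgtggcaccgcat
The second pair is from a family of 5 on chromosome 17, with the CCAAT-box match of NF-Y in capitals, on the forward strand. In a comparison without gaps the windows differed at 17 of 106 positions.
first region near Zfp960, chr17:17004916-17005021: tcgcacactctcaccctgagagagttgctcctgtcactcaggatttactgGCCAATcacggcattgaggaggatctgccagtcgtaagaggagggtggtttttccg
second region near Zfp960, chr17:16951348-16951453: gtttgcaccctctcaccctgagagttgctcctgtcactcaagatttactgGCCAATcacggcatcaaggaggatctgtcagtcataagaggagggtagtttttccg
The last 3 are windows of 121 bp around summits, on the forward strand, of regions without a match elsewhere, with the matches named in capitals. The first holds a CTCF match, read on the reverse strand with 1 mismatch, and had the largest ratio of replicate 1 to replicate 2 signal of all members. The second holds an NF-Y match, read on the reverse strand. The third, in an intron, holds a RUNX and an ETS match.
region near Olfr94, chr17:37203734-37203854: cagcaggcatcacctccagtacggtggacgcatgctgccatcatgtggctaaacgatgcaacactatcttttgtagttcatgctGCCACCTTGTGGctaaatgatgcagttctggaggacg
region near Hpcal1, chr12:17881738-17881858: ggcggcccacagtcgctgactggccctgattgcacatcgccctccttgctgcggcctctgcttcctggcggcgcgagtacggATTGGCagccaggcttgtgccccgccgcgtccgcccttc
region in an intron of Dnah6, chr6:73210570-73210690: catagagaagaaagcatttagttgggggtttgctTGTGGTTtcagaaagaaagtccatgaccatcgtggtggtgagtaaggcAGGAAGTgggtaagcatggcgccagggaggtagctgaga

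The signals of the members ran from 12 to 40.2 with a median of 13.2. In replicate 1's own list their signals ran from 9.26 to 41.3 with a median of 14.4, and in replicate 2's from 5.75 to 32.3 with a median of 10.2. The signal was higher in replicate 1 at 1390 members and higher in replicate 2 at 59, and the median ratio of replicate 1 to replicate 2 was 1.39, beside 1.34 over the weaker distal regions. No source used here states how the signals of the libraries were scaled, so whether the level of this ratio reflects a difference in accessibility cannot be told. At 1330 members replicate 1's own signal was also at least 12, at 244 replicate 2's, and at 228 both. Over the members the signals of the replicates had a Spearman coefficient of 0.018, and over the weaker distal regions 0.471, which describes regions of the same libraries. The members were chosen on the signal of both libraries pooled, and a cut on that signal can itself lower the coefficient. The 2 coefficients therefore do not compare how well the replicates agree in the 2 sets. Summits in the replicates' own lists lay a median of 12 bp apart at the members and 16 bp at the weaker distal regions. They were more than 100 bp apart at 7 members (0.483%) and at 5.03% of the weaker distal regions.

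**Figure D1:**
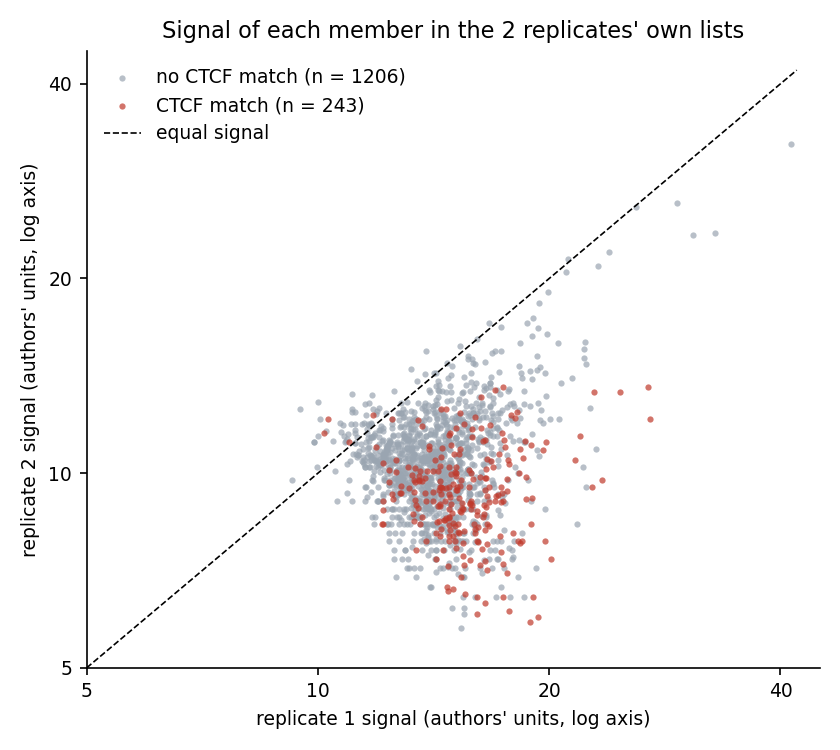
Signal of each of the 1449 regions in replicate 1's own list (horizontal, authors' units, log axis) and in replicate 2's (vertical, log axis), in red where the summit window holds a CTCF match (n = 243) and in grey where it does not (n = 1206). Most points lie below the dashed line of equal signal, and the red points lie mostly to the right of and below the grey ones, with median ratios of 1.68 and 1.34.

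The highest signals belonged to regions whose sequence also occurs elsewhere. Of the 1449 regions 98 (6.76%, 95% Wilson interval 5.58 to 8.17) matched another place in the nuclear genome or mitochondrial DNA at 90% identity over 50% of their length, beside 2.34% (2.04 to 2.68) of the weaker distal regions. Of these, 95 matched elsewhere in the nuclear genome, 10 matched mitochondrial DNA and 7 did both. All 10 regions of highest signal had such a match, as did 17 of the highest 25. The share was 3.06% at signals of 12 to 13, 6.06% at 13 to 15, 11.3% at 15 to 18 and 44.4% (30.9 to 58.8, 20 of 45 regions) at 18 and above. Over the weaker distal regions it was 2.12% under a signal of 8 and 2.64% at 10 to 12. How far reads from the matching places contributed to these signals was not tested.

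The region of highest signal, chr2:69355473-69355729, lay between protein-coding genes, 12985 bp upstream of Abcb11, the bile salt export pump of liver. That region had a signal of 40.2 (41.3 in replicate 1 and 32.3 in replicate 2). Both libraries thus ranked it far above the members' medians. The second, chr16:18533127-18533395, lay in an intron of Gnb1l, which encodes a G protein beta subunit-like protein, at signal 30.3 (30.8 and 23.3). It matched 140 bp of chromosome 17 at 100% identity. The third was chr6:9889878-9890221, between protein-coding genes and 940364 bp from Nxph1, a secreted partner of neurexins, at 30.2 (32.9 and 23.5). Of its length 90.1% aligned to mitochondrial DNA, at 95.5% identity. The fourth was chr5:60042656-60043140, 1765843 bp from G6pd2, a retrotransposed copy of the gene for glucose-6-phosphate dehydrogenase, at 29.7 (29.4 and 26.2), with 79.0% of its length aligned to mitochondrial DNA at 97.9% identity. The sixth was chr12:97061374-97061850, nearest to Galc, a lysosomal galactosylceramidase, at 27.0 (25.9 and 25.8), aligned to mitochondrial DNA at 99.7% identity over 365 bp. The region near Abcb11 was highest in both replicates, while the other 4 changed places between them.

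The remaining members with a mitochondrial match had lower signals, from 22.5 at chr10:96077467-96077945 down to 12.1 at chr10:85025906-85026340, and over all 10 the median was 19.9. The median ratio of replicate 1 to replicate 2 among the 10 was 1.30.

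Members that matched each other formed 16 families holding 44 regions. The largest held 5 regions on chromosome 8, between chr8:19784470-19785022 and chr8:20550052-20550608, with identities of 95.6% to 98.7%. Their signals were 27.6, 25.8, 24.5, 23.1 and 17.0. In replicate 1 their signals ran from 18.4 to 27.1 and in replicate 2 from 7.85 to 13.6. Replicate 1 was also the higher at 1390 of all 1449 members. All 5 held a CTCF match, and as near copies they are not separate observations. The summit of chr8:20424176-20424965 lay 3 bp from the start of 2610005L07Rik, a transcribed pseudogene. The family on chromosome 17 held 5 regions, from chr17:16951048-16951677 to chr17:17293866-17294548, near Zfp960 and Zfp97, zinc finger protein genes, and Riok2, a kinase of ribosome assembly, with identities of 90.04% to 95.02%. Signals there were 25.3, 24.1, 22.8, 22.5 and 19.7, from 19.4 to 24.0 in replicate 1 and from 13.8 to 22.01 in replicate 2, and all 5 held an NF-Y match. Of these, chr17:16951048-16951677 lay 67 bp from the start of the lincRNA gene BC002059, chr17:17293866-17294548 lay 96 bp from that of Gm6712 and chr17:17234312-17235021 lay 99 bp from that of Gm5165. Another family held the regions near Nxph1 and Galc and 2 weaker ones, all with mitochondrial matches. A further family held 1 region near each of Trim43a, Trim43b and Trim43c, tripartite motif genes on chromosome 9, at signals of 14.1, 21.1 and 12.8. Some pairs lay near related genes, as at the carboxylesterase genes Ces2c and Ces2e, at signals of 16.6 and 15.9 and 100% identity, and the interferon-inducible genes Ifi202b and Mndal, at 14.2 and 14.0. Others lay on different chromosomes near unrelated genes, as at Igf2bp3, an RNA-binding protein, and Limd1, a LIM domain protein, at 19.2 and 14.2.

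Without any such match 1351 members were left, with signals up to 23.7. The 10 highest of these were singled out after their values were seen. Leading them was chr12:17881342-17882199, 153572 bp from Hpcal1, a neuronal calcium sensor, at 23.7 (21.1 in replicate 1 and 20.5 in replicate 2). Its summit lay 399 bp from the start of Gm49326, a gene that is not protein-coding. Next was chr1:13513721-13514291, 75946 bp from Tram1, a protein of the endoplasmic reticulum translocon, at 22.1 (19.9 and 19.0). Of these 10 only 1 lay inside a protein-coding gene, chr10:4786923-4787545 in an intron of Esr1, the estrogen receptor alpha. That region had a signal of 20.7 (20.6 and 15.9) and held a RUNX match. The CTCF-holding region chr4:127015638-127016085, 5559 bp from Sfpq, a splicing factor, had 19.9 (23.4 and 9.76), so the replicates stood further apart there than at the regions near Hpcal1 and Tram1.

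**Figure D2:**
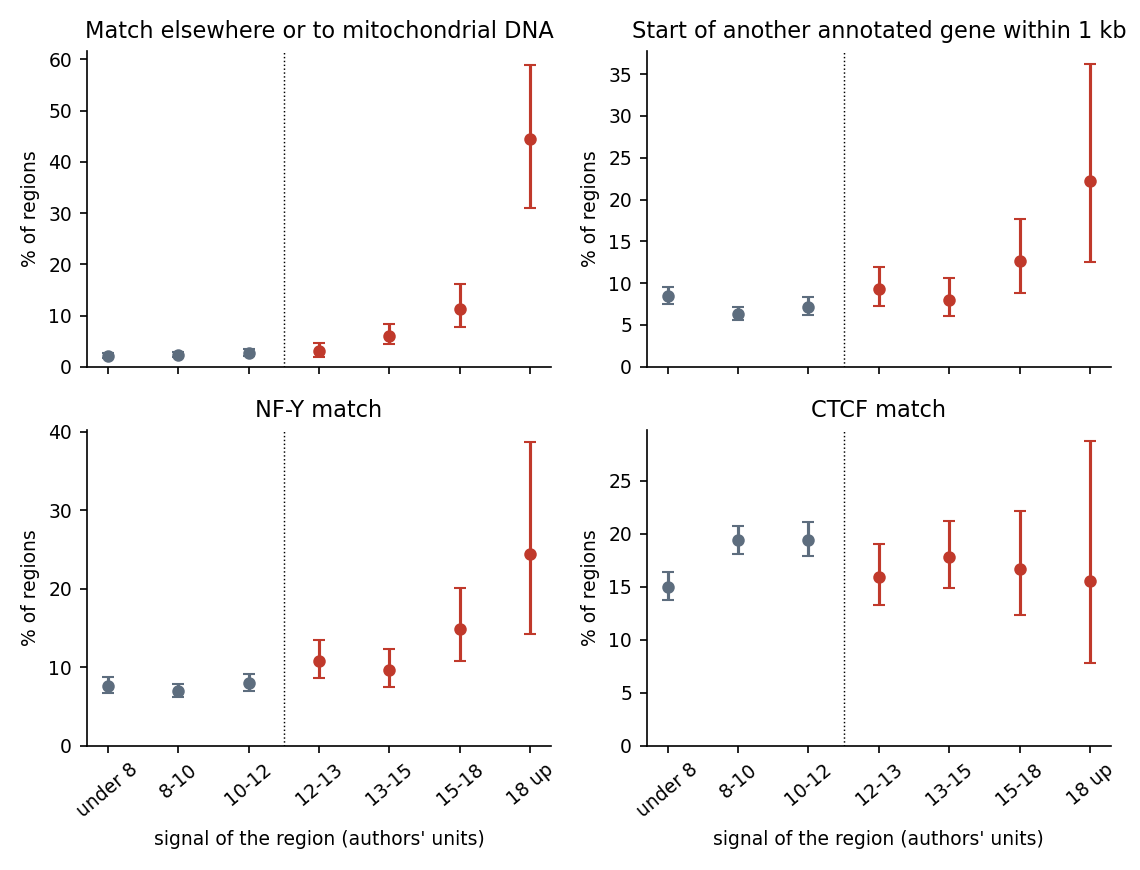
Share of reproducible distal regions (vertical, %, with 95% Wilson intervals) with each of 4 features, by signal (horizontal, authors' units). Red points right of the dotted line are members and grey points are weaker distal regions. Matches elsewhere or to mitochondrial DNA rise to 44.4%, starts of other genes to 22.2% and NF-Y matches to 24.4% in the highest bin (n = 45), while CTCF matches stay between 15.0% and 19.4%. Of the 11 regions with an NF-Y match in that bin 5 belong to the chromosome 17 family of similar sequences. Some regions of the chromosome 8 family, which all held a CTCF match, also lie there. The intervals count such copies as separate regions.

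Members lay mostly outside protein-coding genes. The classes used protein-coding genes alone, so an intergenic summit may lie in a gene of another type. The summit was intergenic at 874 members (60.3%, 57.8 to 62.8), in an intron at 535 (36.9%), in an untranslated region at 23 and in coding sequence at 17. Of the weaker distal regions 49.5% (48.4 to 50.5) were intergenic and 45.9% intronic, and the intervals of the 2 sets did not overlap. Coding sequence held 1.17% (0.734 to 1.87) of members and 2.49% (2.18 to 2.84) of weaker distal regions, also without overlap. For untranslated regions, at 1.59% (1.06 to 2.37) and 2.12% (1.83 to 2.44), the intervals overlapped. The intergenic share rose along the signal, from 44.8% under 8 to 54.2% at 10 to 12, and among members from 56.5% at 12 to 13 to 77.8% at 18 and above. Members lay a median of 33873 bp from the nearest protein-coding TSS and weaker distal regions 21065 bp. Within 5 kb of a TSS lay 4.62% of members and 15.0% of weaker distal regions, and over 500 kb away 2.83% and 0.628%. Distance from a TSS is part of the rule for both sets, and no test of these differences was made, because regions of 1 pair of libraries are not replicates.

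The members nearest to a protein-coding TSS were chr8:39045381-39045748, 1061 bp from Tusc3, a subunit of the oligosaccharyltransferase, chr3:60080354-60081187, 1063 bp from Sucnr1, the succinate receptor, and chr2:62574983-62575482, 1117 bp from Fap, a stromal serine protease. Their signals were 14.4, 12.5 and 12.6. The 3 farthest included chr5:59996540-59997173, 1812013 bp from G6pd2, and chr1:101902036-101902714, 1804563 bp from Cntnap5b, a neurexin family gene.
In coding sequence the highest signals were at chr16:81437436-81438146 in Ncam2, a neural cell adhesion molecule, at 18.1 (16.7 in replicate 1 and 17.1 in replicate 2), chr9:76230427-76230905 in Hcrtr2, an orexin receptor, at 16.5, and chr15:34529860-34530550 in Pop1, a subunit of RNase P, at 16.4. In untranslated regions they were at chr3:129269872-129270658 in Enpep, aminopeptidase A, at 16.1, chr11:104424780-104425457 in Kansl1, a subunit of a histone acetyltransferase complex, at 15.6, and chr10:13007950-13009084 in Sf3b5, a splicing factor subunit, at 14.9.

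A distal summit could still lie at the start of a gene that is not protein-coding. This was so within 1 kb for 141 members (9.73%, 8.31 to 11.4) and for 7.25% (6.72 to 7.82) of the weaker distal regions. Starts of pseudogenes lay that near for 2.83% (2.09 to 3.82) of members and 0.943% (0.759 to 1.17) of weaker distal regions, and starts of long noncoding RNA genes for 5.66% (4.58 to 6.97) and 4.51% (4.10 to 4.97). Among the 1351 members without a match elsewhere the share at starts of other genes was 7.25%. The share given for the weaker distal regions still includes those with a match, so the 2 are not like for like.

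The nearest protein-coding genes numbered 1298, of which 1165 were nearest to 1 member. Atp2b1, a calcium pump of the plasma membrane, B3galt2, a galactosyltransferase, and Pde4d, a cAMP phosphodiesterase, were each nearest to 4. Neighbouring summits on a chromosome lay a median of 981 kb apart, and 145 of 1430 pairs lay within 100 kb. Members per megabase ran from 0.45 on chromosome 12 to 0.81 on chromosome 13.

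Of 32 transcription factors of stem and progenitor cells, 5 were the nearest gene of 6 members (0.414%), while 23 of the 32 were the nearest gene of a weaker distal region (0.675% of those). Gfi1, a repressor needed for stem cell quiescence, had a pair, both in introns of its neighbour Evi5: chr5:107759001-107759642, with 13.6 (12.7 in replicate 1 and 12.4 in replicate 2), and chr5:107749374-107750335, with 12.9 (14.1 and 8.34). The replicates were close at the first and apart at the second. Mecom, which encodes the stem cell factor EVI1, had chr3:30477002-30477378 in its own intron at 12.5 (12.9 and 9.68), with a RUNX match and one to TGACAG, the letters searched for MEIS proteins. Meis1, a partner of HOX proteins, had chr11:18924709-18925437 in its intron at 12.8 (14.3 and 8.24), with ETS, GATA and MEIS matches. Nfia, a nuclear factor I gene, had chr4:98039958-98040572 in its intron at 12.7 (13.6 and 8.09). Etv6, an ETS repressor needed by adult stem cells, had chr6:133960737-133961002, 74833 bp upstream, at 12.6 (16.3 and 7.64), with CTCF, ETS and GATA matches. All 6 signals lay between 12.5 and 13.6. Over all members the median was 13.2, with quartiles of 12.5 and 14.4, so these 6 lay in the middle part of the members' signals.

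Of 20 surface proteins of stem and progenitor cells 2 were the nearest gene of 1 member each (0.138% of members), and 13 were the nearest gene of a weaker distal region (0.314% of those). Cd34, a sialomucin of progenitors, had chr1:194879264-194880290, 59058 bp upstream, at 13.2 (15.0 and 9.62), and Alcam, an adhesion molecule, had chr16:52310929-52311627 at 13.3 (14.2 and 8.09), and both held a CTCF match. The erythroid, megakaryocyte, B cell, mast cell, basophil and eosinophil, and liver, muscle and neural lists had no member, and held between 0.0465% and 0.151% of the weaker distal regions, shares at which few or no members would be counted. The 1 member on the granulocyte and monocyte list lay 14545 bp upstream of S100a9, a calcium-binding protein of neutrophils, at 13.7, with a CTCF match. That list held 0.0690% of members and 0.209% of weaker distal regions. The 1 member on the T and NK cell list lay 284472 bp from Gata3, the T cell factor, at 14.2, and that among genes of chromatin architecture lay in an intron of Pds5b, a cohesin regulator, at 12.02. Each of these lists held 0.0690% of members and 0.0931% of weaker distal regions. The endothelial and stromal list had Sox17, an endothelial and fetal stem cell factor, at 12.1, and Stab2, a scavenger receptor of sinusoids, at 12.9, which made 0.138% of members beside 0.128% of weaker distal regions. Nearest position does not show which gene a region acts on.

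Sequence was not used to choose the members. Matches to 22 consensus sequences were counted on both strands in 201-bp windows around the summits, and matches of different consensus sequences may overlap. CTCF was searched with a 12-letter core, allowing 1 mismatch, and the others described here without mismatches. A match is a description of letters and not a bound site. As a second background, windows centred 600 bp to each side of the members' summits were searched.

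The ETS consensus AGGAAGT lay in 26.8% of members (24.6 to 29.2), beside 25.2% of weaker distal regions and 4.38% of the windows to the sides. The consensus of RUNX proteins, TGNGGTT, lay in 26.4% (24.2 to 28.7), beside 25.7% and 11.2%. For CTCF the shares were 16.8% (14.9 to 18.8), 17.9% and 1.76%. AP-1, the FOS and JUN dimer with the consensus TGANTCA, had 10.5% (9.02 to 12.2), 11.2% and 5.69%. For GATA factors, searched as AGATAA, the members' share was 6.90% (5.71 to 8.32), beside 8.59% and 13.2%, so these letters were less frequent under the summits than beside them. The members' shares of all 5 stood apart from those of the windows to the sides. Their intervals overlapped those of the weaker distal regions, for GATA only at the ends (5.71 to 8.32 and 8.01 to 9.20), so they were near that background. The exception among the 22 was NF-Y, searched as GCCAAT, with 11.4% (9.85 to 13.1) of members, 7.47% (6.93 to 8.05) of weaker distal regions and 6.35% of the windows to the sides.

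The highest signals with an ETS match were 22.5 at chr10:96077467-96077945, which also matched mitochondrial DNA, and 20.3 at chr17:21370054-21370687, nearest to Zfp677. With a GATA match they were 19.9 at chr14:55392341-55393035, nearest to Dhrs4, a dehydrogenase, and 19.8 at chr7:30373448-30373982, nearest to Lrfn3, a synaptic adhesion protein. With an AP-1 match they were 18.3 at chr13:4771123-4772061, nearest to Akr1e1, an aldo-keto reductase, and 17.9 at chr1:44584666-44585360 in an intron of Gulp1, an engulfment adaptor.
RUNX and ETS matches stood together in 119 members (8.21%, 6.91 to 9.74) and 7.07% (6.55 to 7.64) of weaker distal regions. The highest were at chr16:16099652-16100258 in an intron of Spidr, a DNA repair scaffold, at 17.8, at chr6:73210381-73211229 in an intron of Dnah6, a dynein heavy chain, at 17.0, and at chr2:11239302-11239984 in an intron of Prkcq, protein kinase C theta, at 16.9. At least 2 RUNX matches lay in 5.73% of members (4.64 to 7.05) and 3.69% of weaker distal regions (3.31 to 4.11), and at least 2 CTCF matches in 2.48% (1.80 to 3.42) and 1.27% (1.05 to 1.53), intervals that did not overlap in either case. For at least 2 ETS matches, at 4.21% (3.29 to 5.37) and 3.20% (2.85 to 3.59), and at least 2 NF-Y matches, at 1.17% (0.734 to 1.87) and 0.605% (0.462 to 0.793), the intervals overlapped. None of CTCF, RUNX and ETS lay in 42.2% of members and 42.4% of weaker distal regions.

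**Figure D3:**
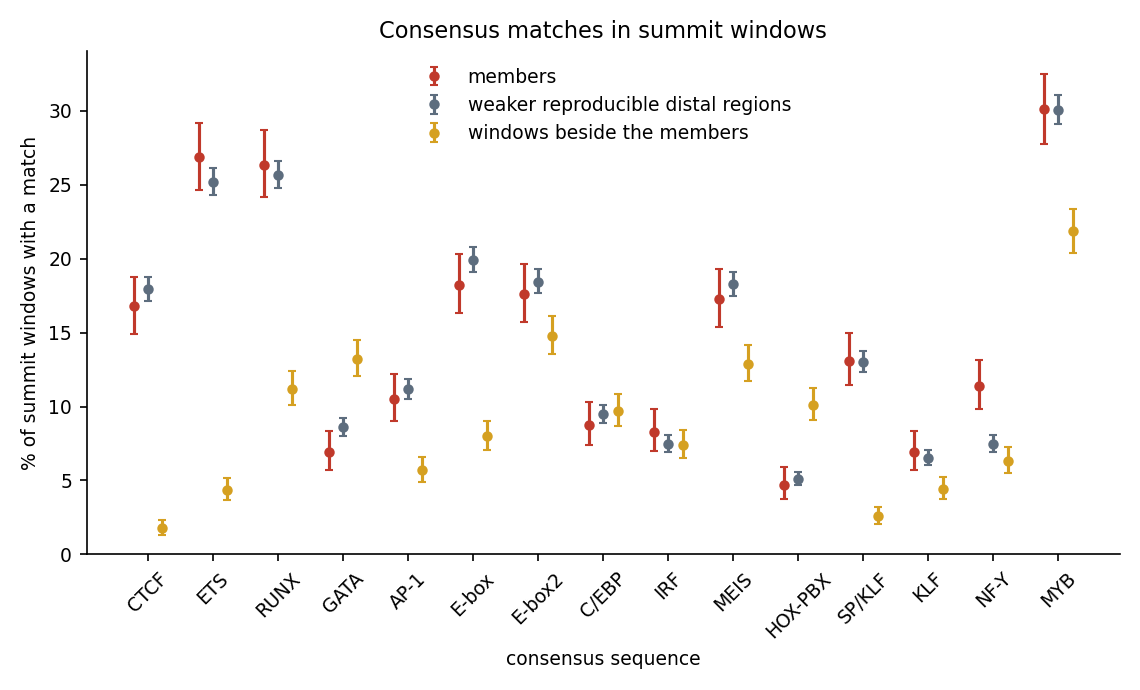
Share of summit windows of 201 bp with a match (vertical, %, with 95% Wilson intervals) to each consensus sequence found in at least 20 members (horizontal), for members (red, n = 1449), weaker distal regions (grey, n = 8594) and windows beside the members (yellow, n = 2898). Red and grey intervals overlap except at NF-Y, where the shares are 11.4% and 7.47%, and both sets stand far above yellow at CTCF and ETS.

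Positions were measured within 100 bp of the summit. The CTCF match nearest the summit lay a median of 25.5 bp from it in members and 19.5 bp in weaker distal regions, and the RUNX match 32 and 37 bp. Within 25 bp lay 48.6% of members' CTCF matches against 60.8% in weaker distal regions, and 43.2% of RUNX matches against 34.6%. ETS stood at a median of 32 bp in members and 31 bp in weaker distal regions, and GATA at 50 and 49.5 bp.

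**Figure D4:**
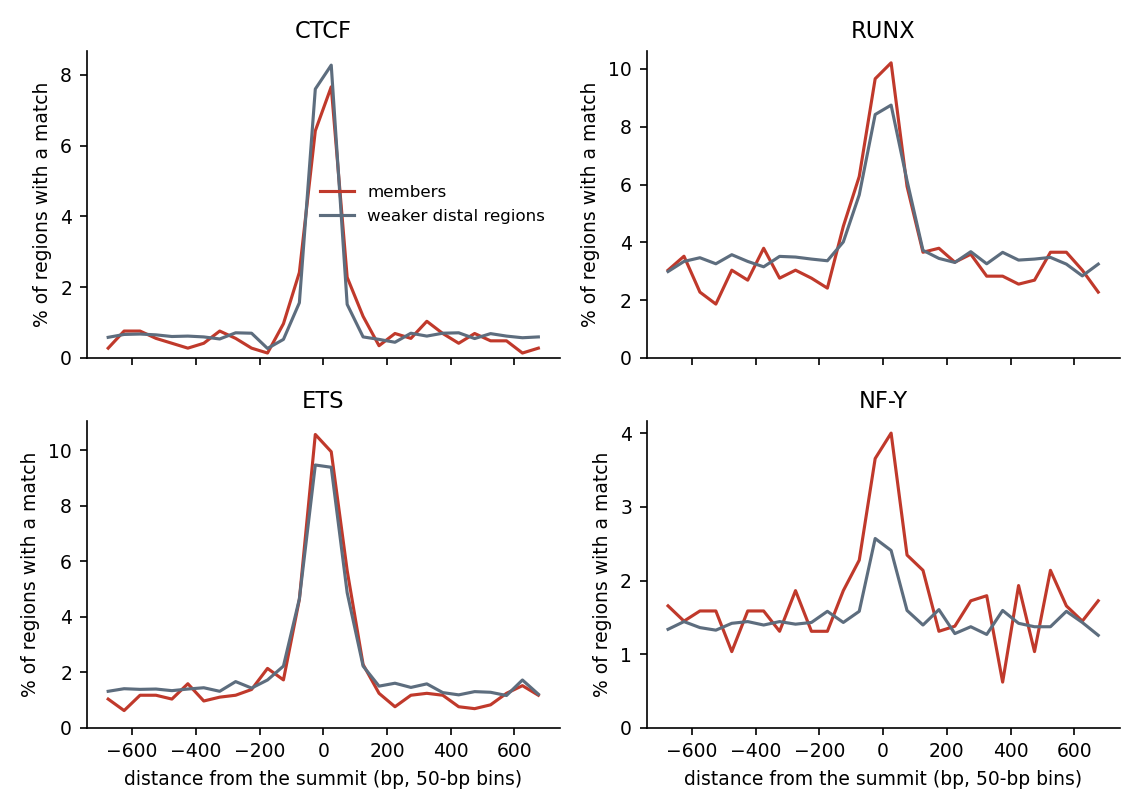
Share of regions with a match (vertical, %) in each 50-bp bin by distance from the summit (horizontal, bp), for members (red) and weaker distal regions (grey). In members CTCF reaches 7.66%, RUNX 10.2% and ETS 10.6% in a bin next to the summit, and NF-Y reaches 4.003%, above the grey line.

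NF-Y matches went with other features. Of all 8-letter sequences CCAATCAG, which holds the CCAAT box, had the largest difference in share between members (3.66%) and weaker distal regions (1.18%). It was followed by AAACCACA, which holds the RUNX consensus (9.66% and 7.23%), and by ACTTCCTC, which holds the ETS consensus (13.5% and 11.3%). These letters were singled out after their values were seen. Of the 165 members with an NF-Y match 26.7% (20.5 to 33.9) lay within 1 kb of the start of a gene that is not protein-coding, against 7.55% (6.23 to 9.13) of the others. The same share, 26.7%, had a CpG-rich window (GC content of at least 50% and a ratio of observed to expected CpG of at least 0.6), against 9.27%. A match elsewhere was held by 17.6% (12.5 to 24.1) against 5.37% (4.27 to 6.75). Leaving out each kind alone, in both sets, kept the intervals apart. NF-Y matches lay in 10.1% (8.57 to 11.8) of members and 7.39% (6.85 to 7.97) of weaker distal regions without a match elsewhere, in 9.25% (7.80 to 10.9) and 7.11% (6.57 to 7.70) away from starts of other genes, and in 9.41% (7.93 to 11.1) and 7.17% (6.62 to 7.76) outside CpG-rich windows. Without regions of any of these 3 kinds NF-Y matches lay in 7.84% of 1161 members (6.43 to 9.53) and, likewise, in 6.87% of 7236 weaker distal regions (6.31 to 7.47), and the intervals overlapped.

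CTCF matches went with the difference between the replicates. The ratio of replicate 1 to replicate 2 signal had a median of 1.68 over the 243 members with a CTCF match and 1.34 over the 1206 without. Of the 243, 4 were higher in replicate 2, beside 59 of all 1449 members, so this was rare with or without a match. When members were ordered by this ratio and cut into 5 groups of equal size (289 or 290 regions), CTCF matches lay in 3.81% (2.14 to 6.69) of the lowest, then in 5.86%, 13.8% and 20%, and in 40.3% (34.9 to 46.1) of the highest. From the lowest to the highest group ETS matches went from 28.4% to 24.8%, RUNX matches from 28.7% to 18.6%, the median GC content from 52.7% to 50.5% and the median width from 649 to 558 bp. Over the weaker distal regions the medians of the ratio were 1.54 with and 1.31 without a CTCF match. The signals of each replicate form part of the pooled signal behind the choice of members, so these are descriptions.

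The ratio was higher with a CTCF match in each stratum examined. Its medians were 1.70 against 1.37 in members narrower than the median width and 1.61 against 1.33 in wider ones, 1.82 against 1.39 where GC content was under 50% and 1.62 against 1.32 where it was higher, and 1.67 against 1.34 in members without a match elsewhere. Members with an exact CTCF match had a median ratio of 1.82 (n = 74). The labelled size range differs in being given for replicate 2 alone, and its part in the ratio was not tested.

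The CTCF share differed between the replicates' own lists. Taking the 1449 autosomal distal regions of highest signal from each replicate's own list, CTCF matches lay in 28.1% (25.8 to 30.5) of replicate 1's and 8.83% (7.48 to 10.4) of replicate 2's. RUNX matches lay in 22.8% (20.7 to 25.004) and 29.0% (26.7 to 31.4), also without overlap of the intervals. ETS matches, at 24.5% and 25.7%, and NF-Y matches, at 10.8% and 11.6%, had intervals that overlapped. Of replicate 1's regions 606 (41.8%) overlapped one of replicate 2's. The share of 16.8% in the members thus stood between those of the libraries.

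**Figure D5:**
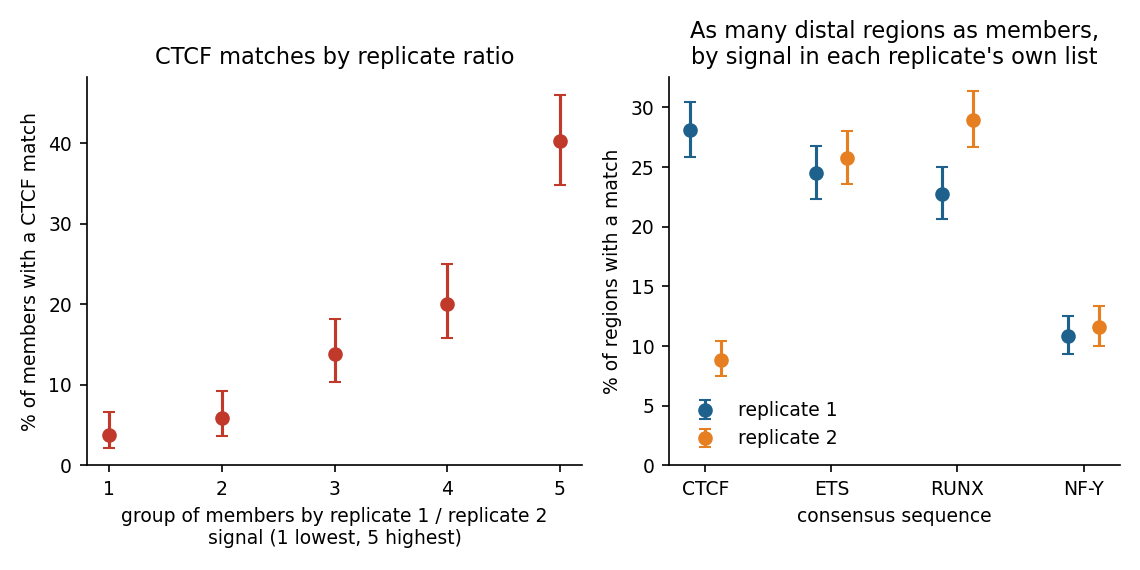
Left, share of members with a CTCF match (vertical, %, with 95% Wilson intervals) in 5 groups ordered by the ratio of replicate 1 to replicate 2 signal (horizontal, lowest first), from 3.81% to 40.3%. Right, share of the 1449 strongest distal regions of each replicate's own list with a match (vertical, %, same intervals) to 4 consensus sequences (horizontal), where CTCF stands at 28.1% in replicate 1 (blue) and 8.83% in replicate 2 (orange).

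The 3 largest ratios were at members with a CTCF match. They were chr17:37203653-37204121 near Olfr94, an olfactory receptor gene, with 19.3 in replicate 1 and 5.99 in replicate 2 (ratio 3.23), chr10:126918970-126919481 near Atp23, a mitochondrial metallopeptidase, with 18.9 and 5.89 (3.20), and chr10:33986823-33987292 near Rwdd1 with 19.1 and 6.43 (2.97). The 3 smallest held no CTCF match. They were chr16:3114862-3115228, which matched 2 other places, with 9.46 and 12.6 (0.75), chr9:75094562-75095272 in an intron of Myo5a, an organelle motor, with 10.01 and 12.9 (0.78), and chr9:64830036-64830651 in an intron of Dennd4a, a RAB exchange factor, with 10.1 and 12.1 (0.83). At the first 3 replicate 1 lay above its median over members and replicate 2 below, and at the last 3 the reverse.

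Members with a CTCF match differed in further ways from those without. They were narrower, with a median width of 542 bp against 647, and more often intergenic, at 67.9% (61.8 to 73.5) against 58.8% (56.0 to 61.5). ETS matches lay in 11.1% (7.75 to 15.7) of them against 30.0% (27.5 to 32.7), RUNX matches in 14.8% (10.9 to 19.8) against 28.7% (26.2 to 31.3) and NF-Y matches in 6.58% (4.09 to 10.4) against 12.4% (10.6 to 14.3). The highest signals with a CTCF match were those of the chromosome 8 family, and the highest without a match elsewhere was 21.1 at chr4:88757568-88757852, 2415 bp from Gm13283, with 24.7 in replicate 1 and 13.3 in replicate 2.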

How the data were processed

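Deposited peak lists of 2 ATAC-seq libraries were used, on mm10 per the labels. The aligner, the peak caller and any shift of reads for the transposase were not given in the sources used here. The signal, the −log10 p and the IDR score of each peak (IDR, irreproducible discovery rate) were deposited by the authors, without a stated scaling. The −log10 p entered no result, and 1071 members had the full score of 1000. Of 53241 conservative peaks 99.9% stood with the same position and signal in the list called on the pooled libraries. The members, gene lists and consensus sequences were chosen with earlier results of these data known.

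Peaks were merged in Python 3.11.15 with numpy 2.4.6 and scipy 1.17.1, and genes came from GENCODE M21. Matches were found with blastn 2.17.0 (e-values 1e-10 for chromosomes 1 to 19, X and Y, and 1e-05 for mitochondrial DNA, 90% identity over 50% of the length), and unplaced sequence was not searched. Merging and the consensus search were tested on simulated data. Wilson intervals at 95% cover counting error only. With 1 group, no test was made. Regions named were the 10 of highest signal, the 3 of highest signal per position class and per consensus described, up to 3 per gene list, and the 3 at each end of the ratio and of the TSS distance, of which some are given as ranges, and the rest are said to be chosen after their values were seen. All 6 members of the stem cell factor list are named. Alternatives were other thresholds, distances, overlaps, windows and lists, and each replicate alone. Sequences on chromosome 18 and 1 stem cell marker are not reported here.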

Additional observations from a re-analysis of the deposited data

How the results depend on the processing

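Applying the rule to 1 replicate's own list gave 251 to 3278 members, with CTCF shares of 7.17% to 28.3%, matched shares of 5.03% to 14.3%, shares at starts of other genes of 7.32% to 11.95%, intergenic shares of 58.2% to 61.8% and NF-Y shares of 9.40% to 15.5%. Replicate 1's list gave the 3278 regions and the higher CTCF share, and replicate 2's the 251 and the higher values of the other shares. Equal numbers from the own lists gave CTCF shares of 28.1% and 8.83%. A signal threshold of 10 gave 3798 members, 56.5% intergenic, 8.16% at starts of other genes, 4.21% with matches and 9.27% with NF-Y. A threshold of 15 gave 267 members, 65.2% intergenic, 14.2% at starts of other genes, 16.9% with matches and 16.5% with NF-Y. Without matched regions 7.25% lay at starts of other genes, and without these, other genes' starts and CpG-rich windows NF-Y fell to 7.84%. CTCF stood at 5.11% for exact matches and 12.5% within 50 bp of the summit. Each of these settings changed the members or the search, and why the shares moved was not tested. A distance of 5 kb, overlap of 50% and the other IDR list left the values within their intervals or within 1.5 times, and the summit distance stayed between 9 and 13 bp. The NF-Y settings and the equal numbers were chosen after seeing the data. No paired analysis was possible because there is 1 group. Read depth is unknown, so what it limits could not be computed.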

Other observations

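Of 66 strong distal autosomal regions left out for lack of a region in a replicate's list, 62 were in replicate 1's list alone and 4 in replicate 2's alone. On X and Y 46 further strong distal regions stood in both replicates' lists and were left out by the rule. At 584 members the merged region held more than 1 summit.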
